A study of Xenopus laevis with 59 samples.

Results

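The small oocytes of *Xenopus laevis*, the African clawed frog, are the stage IV oocytes of this TOMO-Seq study, and their RNA is described here along the animal-vegetal (A-V) axis. They were chosen by their size class in the sample labels and make up 25 of the 59 *X. laevis* libraries, from 5 of 12 oocytes. Oocytes 1 to 3 measured 810 µm, oocyte 4 measured 750 µm and oocyte 5 measured 720 µm. Each frozen oocyte had been cut into slices of 30 µm, and its slices were shared out equally and in order over 5 tubes: A (extreme animal), B (animal), C (central), D (vegetal) and E (extreme vegetal). The total RNA of every tube was depleted of ribosomal RNA and gave 1 library. The study had tested the orientation of each oocyte by RT-qPCR of marker transcripts and kept only oocytes with a continuous gradient of these markers, so that a gradient of the markers was a condition for being sequenced. The oocytes were untreated and had been separated by hand from the ovary, and no step that removes follicle cells is described. All small oocytes came from female 1, as did the 2 medium (1050 µm) and 2 big oocytes (1140 and 1200 µm), whereas the 3 very small oocytes (560 to 580 µm) came from female 2. Stage and female can therefore not be told apart between small and very small oocytes. Replicates are oocytes of 1 animal, and the p-values measure the spread between oocytes and not between animals.

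Oocytes of *Xenopus* store maternal RNA, part of which is moved to the vegetal cortex. The early pathway carries germ plasm RNAs with the mitochondrial cloud in previtellogenic oocytes. The late pathway carries RNAs such as *vegt* and *gdf1* along microtubules during vitellogenesis. RNA of the animal hemisphere also becomes unequal, and in this allotetraploid genome a gene commonly has 2 homeologs, named .L and .S.

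RT-qPCR primers were designed by the study for 6 *X. laevis* transcripts, and the markers of the orientation check were animal and vegetal transcripts. The primers are shown 5′ to 3′ because a gradient of the transcripts they detect bears on which oocytes were sequenced. They are in lower case with no base singled out, and which primer served for which pole is not given in the sources used here. RefSeq (v10.1) places *ifrd2.L* and *grip2.L* on chromosome 4L, *otx1.L* on 5L, *nanos1.L* on 7L, and *wnt11b.L* and *exd2.L* on 8L.
*nanos1.L* forward: gcaccttttctaatgttgctgc
*nanos1.L* reverse: tgccgagtgagacatcagtg
*grip2.L* forward: tttggctttggtctctaggc
*grip2.L* reverse: tttgtctgtaccaccggaga
*wnt11b.L* forward: cagcaccagactgagcctatt
*wnt11b.L* reverse: cccaaaactggcccctgaa
*otx1.L* forward: ctccctgtgtcgtcaagagc
*otx1.L* reverse: ggtatcctttgctccaccgt
*exd2.L* forward: gcagacccgcagtagaaca
*exd2.L* reverse: gaacccaagaaggtgcagga
*ifrd2.L* forward: atttgcggcttgctctctct
*ifrd2.L* reverse: cggaacaactcctccccttc

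The 25 libraries held 1507733 to 7356435 counts (median 3248271). Section E was deeper, with a median of 5802870 counts, than the other sections, whose medians were 2901065 (C) to 3467541 (A). A level is given as CPM, the count scaled to a library total of 1000000 after TMM normalization. A share is the CPM of a section as a percentage of the sum over the 5 sections of its oocyte. Shares are given as mean ± SD over 5 oocytes, and a percentage of a transcript's RNA is this share. Every library was made from the same amount of total RNA, so levels and shares are relative to the RNA of each section. A transcript that follows the bulk of the RNA has about 20% in each section. The RNA content of the sections was not compared, and absolute amounts per section were not tested. As vegetal gradient, the mean log2 level of sections A to C was subtracted from that of E, and as animal gradient, the mean of C to E was subtracted from that of A. Transcripts passed at an FDR under 0.1 in edgeR's quasi-likelihood test with the oocyte as block, and the SE of a log2 value is approximate. Of 32291 transcripts, 18982 had a mean total above 20 counts per oocyte and were tested. The 17 transcripts of the oocyte identity list summed to 1576 to 1856 CPM in every library, and the labelled cell type was thus met in all sections.

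RNA of small oocytes was uneven mostly at the tips. Sections differed for 1618 transcripts (8.52% of those tested), of which 795 (49.1%) had their highest mean share in E and 613 (37.9%) in A, against 87 in D, 72 in C and 51 in B. Between neighbouring sections, the step from D to E carried 548 calls (2.89%), with 537 higher in E. The step from C to D carried 177 (0.932%), with 169 higher in D, and the step from A to B 53 (0.279%), with 45 lower in B. Between B and C no transcript passed in edgeR, and DESeq2 called 3. An unadjusted p under 0.05 was found for 897, which is no more than chance alone gives. Without oocyte 4, sections differed for 766 transcripts, and the steps from A to B and from C to D carried 4 and 105 calls. When all libraries were thinned to the same depth, sections differed for 541, and the 4 steps from A to E carried 2, 1, 93 and 284.

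The vegetal gradient was higher in E for 941 transcripts (4.96%) and lower in E for 452 (2.38%), or 778 and 210 without oocyte 4. The directions were unequal in size: 327 of the 941 were at least 2-fold higher in E, 152 at least 4-fold and 58 at least 16-fold, against 14 of the 452 that were at least 2-fold lower. Mean shares in E were at least 50% for 135 of the 941 transcripts, at least 75% for 47 and at least 90% for 10.

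Germ plasm RNAs were among those with the steepest gradients. *nanos1.L*, which encodes a translational repressor needed in germ cells, had 129, 191, 274, 243 and 242 CPM in section E of oocytes 1 to 5, and at most 2.94 CPM in any library of A to C. Every E library thus stood far above every other library, and D held 3.25, 2.84, 4.95, 6.45 and 4.6 CPM. Its vegetal gradient was the largest among named transcripts with a total of at least 100 counts (log2 8.43, SE 0.18, edgeR FDR 5.99e-23), with 97.0 ± 1.03% of the RNA in E. *grip2.L*, which encodes a PDZ domain protein of the germ plasm, had 519.8, 1029, 843, 1195 and 843 CPM in E and at most 7.16 CPM in A to C (log2 8.04, SE 0.18, edgeR FDR 1.33e-22). *ddx25.L*, a DEAD box helicase known as deadsouth, had 774, 1275, 1190.0, 1483 and 1417 CPM in E against 4.92 to 24.0 CPM in A to C (log2 7.04, SE 0.16, edgeR FDR 1.33e-22). *dazl.L*, a translational activator in germ cells, had 93.6, 182, 181, 206 and 155 CPM in E and at most 5.99 CPM in A to C (log2 6.25, SE 0.12, edgeR FDR 3.41e-24). It reached further into D than *nanos1.L*, with 10.3 ± 1.65% of its RNA in D, against 2.01 ± 0.461% for *nanos1.L*, a difference that was not tested. In all 4 transcripts the groups did not overlap, and oocyte 1 had the lowest level in E. *nanos1.L* and *grip2.L* are among the transcripts with primers, so a gradient in them may have been a condition for being sequenced.

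This list and the late vegetal, intermediate and animal pathway lists below were chosen with earlier results of these data known. Their shares are therefore a description and no independent support. Of the 16 early pathway and germ plasm transcripts tested, 7 were higher in E (43.8%, against 4.96% of all transcripts tested) and none was lower. Besides those above they were *grip2.S* (7.44), *pgat.L* (6.15), which encodes the germ plasm protein Xpat, and *velo1.L* (2.35), an organizer of the Balbiani body. *velo1.L* was broader, with 50.8 ± 3.77% in E and 19.2% in D, and had 825, 1140.2, 1021, 1204 and 1016 CPM in E against 156 to 272 CPM in A to C. The 9 others, among them *ddx4.L*, *piwil2.L*, *tdrd7.L* and *asz1.L*, which encode proteins of germ granules or the piRNA pathway, had vegetal gradients between -0.14 and 0.07, and none passed. The median of the list was 0.06, against -0.01 over all transcripts tested.

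Of the late vegetal list, 16 of 18 transcripts were higher in E (88.9%, against 4.96% of all), with a median gradient of 3.03. The pathway that carried each of them was not tested. *wnt11b.L*, the ligand upstream of the dorsal Wnt signal, had 272, 598, 489.9, 608 and 524 CPM in E and 9.99 to 23.6 CPM in A to C (log2 4.91, SE 0.12, edgeR FDR 5.75e-22). *otx1.L*, a homeobox factor, had 241, 459, 398, 483 and 399 CPM in E against 18.6 to 39.8 CPM in A to C (log2 3.86, SE 0.13, edgeR FDR 6.56e-19). Neither overlapped between these sections. Both are among the transcripts with primers, so a gradient in them may have been a condition for being sequenced. E held 81.5 ± 2.29% of *wnt11b.L* and 71.0 ± 2.82% of *otx1.L*. *vegt.L*, a T-box factor that specifies endoderm, had 473, 511, 462, 524 and 426 CPM in E, 203, 258, 299.9, 335 and 258 CPM in D and 91.3 to 188 CPM in A to C (log2 1.82, SE 0.09, edgeR FDR 4.65e-15). Its levels in E and D did not overlap, and with 41.4 ± 5.32% in E and 23.0 ± 1.95% in D it was among the broadest of the list. *vegt.S* had nearly the same profile (1.86, 41.5% in E). *rras2.L*, a small GTPase, stood at the other end with 94.8 ± 3.16% in E (log2 7.62, SE 0.28, edgeR FDR 2.63e-18). *acsl1.S*, a fatty acid ligase, had 65.4 ± 5.71% in E and 23.3 ± 4.28% in D. *pcsk6.L*, a proprotein convertase that activates TGF-β ligands, *bicc1.L*, an RNA-binding protein, *efnb1.L*, an ephrin, and *sox7.L*, a SOX factor, had gradients of 4.62, 3.79, 3.09 and 2.49. The 2 members that did not pass were *tob2.S* (0.10) and *parn.S* (0.02).

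Of the 15 intermediate pathway transcripts, 11 were higher in E (73.3%, against 4.96% of all), with a median of 0.83. *trim36.L*, a ubiquitin ligase of vegetal microtubule assembly, and *sybu.L*, a kinesin cargo linker, both needed for cortical rotation, had 81.4 ± 4.63% and 86.5 ± 2.76% of their RNA in E. *plin2.L*, a lipid droplet protein, was at 43.8 ± 3.75%. *dnd1.L*, which encodes a germ cell protein that binds RNA, had a shallower gradient, with 161, 178, 178, 159.9 and 149 CPM in E against 49.6 to 112 CPM in A to C (log2 1.08, SE 0.10, edgeR FDR 2.32e-09). All of its E libraries were above all of its A to C libraries. *rbpms2.S*, the copy of an RNA-binding protein of the Balbiani body, was only slightly higher in E (log2 0.41, SE 0.10, edgeR FDR 0.00976).

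**Figure D1:**
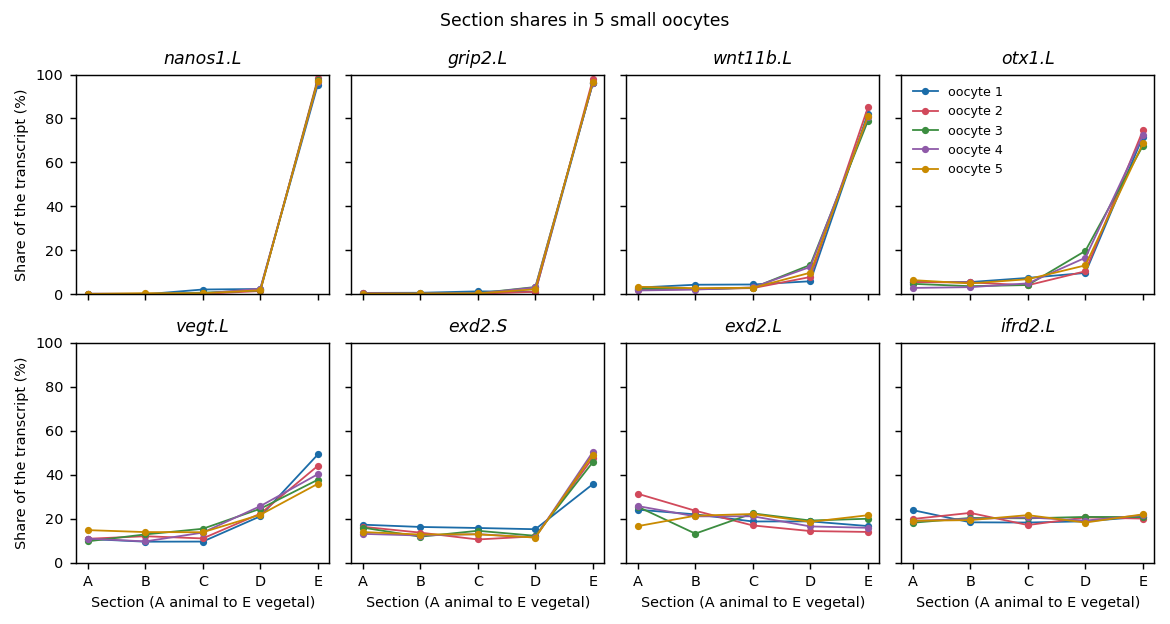
Share of each transcript (%, vertical axis) in sections A to E (horizontal axis) of the 5 small oocytes, with a line for each oocyte. *nanos1.L* and *grip2.L* lie almost wholly in E, *vegt.L* holds about 23.0% in D and 41.4% in E, *exd2.S* is high in E alone, and *ifrd2.L* is flat near 20%.

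The inner sections followed the same axis for fewer transcripts. Between D and B, 223 transcripts were higher in D (1.17%) and 22 lower (0.116%), or 135 and 5 without oocyte 4. *acsl1.S* had 111, 227, 240.5, 325 and 249 CPM in D and 18.0, 26.6, 35.7, 24.2 and 39.6 CPM in B (log2 2.98, SE 0.24, edgeR FDR 2.55e-09), with no overlap. *fam168b.S* and *pgam1.S*, a glycolytic mutase, each held 25% of their RNA in D and had inner gradients of 3.2 and 2.85. Other vegetal transcripts did not pass between D and B. *exd2.S*, a copy of an exonuclease gene, had 198, 288, 271, 342 and 298 CPM in E and 83.9, 72.0, 72.0, 77.5 and 69 CPM in D (E minus D: log2 1.90, SE 0.11, edgeR FDR 7.66e-13), while D did not pass against B (log2 -0.10, SE 0.11, edgeR FDR 0.95). *zfyve26.L*, a FYVE domain protein, had 66.8 ± 5.32% in E and 10.7 ± 1.40% in D, where D did not pass against B either (log2 0.52, SE 0.16, edgeR FDR 0.229).

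Homeolog pairs with a call in E were mostly called for 1 copy only, but copies were also called together. Of 5435 pairs with both copies tested, 479 had at least 1 copy higher in E, and in 87 of these both copies passed, in 212 only .L and in 180 only .S. Of all transcripts tested, 4.96% were higher in E, a smaller part than the 87 of 479 pairs in which both copies passed. Copies were thus called together more often than unrelated transcripts would be, a difference that was not tested. A copy that did not pass is not thereby shown to differ from its partner. *naga.S*, a lysosomal glycosidase, had 227, 241, 599.6, 306 and 438 CPM in E and 5.85 to 16.8 CPM in A to C (5.21), whereas *naga.L* had 22.3 to 38.5 CPM in E and 23.9 to 56.6 CPM in A to C (-0.19). The gradient of .L minus that of .S was -4.73 to -6.03 in the 5 oocytes. *ppp1r2* (a phosphatase inhibitor, .L 4.66, .S -0.08) and *rnf103* (a ubiquitin ligase, .L 4.75, .S 0.03) differed in the opposite sense in every oocyte. In *farp2* and *kif13b* both copies were higher in E, but by unlike amounts (*farp2* .L 5.47 and .S 0.94, *kif13b* .L 4.41 and .S 0.83). The pairs named were chosen after their values were seen, copies with similar sequence can share reads, and no test was made of a pair.

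Oocytes differed in the relative level of vegetal RNA. The 135 transcripts with at least 50% in E summed to 16913 CPM in E of oocyte 1, against 28915, 24244, 30238 and 25286 CPM in oocytes 2 to 5. Averaged over the 5 sections they summed to 4984, 8190, 7748, 8996 and 7951 CPM, so that oocyte 1 was also low in this average. It weighs all sections equally, whatever their RNA content. Its level in E was the lowest of the 5 oocytes for 124 of the 135 transcripts, while oocyte 4 was the highest for 69 and oocyte 2 for 45. Their distribution was less unlike: the median share in E was 69.2, 74.2, 63.0, 69.3 and 66.6% in oocytes 1 to 5. Median shares in D were 11.3, 11.7, 18.5, 16.6 and 14.9%. On the scale of all 59 libraries, the same transcripts summed in E to 14872 to 22929 CPM (very small oocytes), 16848 to 30161 CPM (small), 27086 to 38469 CPM (medium) and 31699 to 33394 CPM (big). These transcripts were chosen by their share in E of small oocytes, and the very small oocytes came from the other female. The cause of the lower level in oocyte 1 was not tested.

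The animal gradient was higher in A for 1563 transcripts (8.23%) and lower in A for 1452 (7.65%). These are counts of mostly small differences, since 293 of the 1563 were at least 1.5-fold higher and 114 at least 2-fold. They also depended on oocyte 4 and on depth. Without oocyte 4, 314 and 422 passed, and after thinning to the same depth 252 and 374. The paper states that its own normalization, by median of ratios, took out most animal transcripts. With DESeq2 size factors, which are medians of ratios, in place of TMM, 1564 were higher in A and 1460 lower. Of the 1563 higher in A with TMM, 1561 were among them, so both methods gave nearly the same calls. What either normalization took out was not tested. *atp5c1.L*, the gamma subunit of the ATP synthase, had 108, 103, 135, 143 and 109 CPM in A, 83.7, 59.2, 81.4, 78.6 and 74.3 CPM in C and 53.3, 43.5, 48.2, 43.3 and 60.0 CPM in E. All A libraries were above all C to E libraries, and its shares went down in each section, with 29.8 ± 3.22%, 22.2%, 18.8%, 16.7% and 12.4 ± 1.77% in A to E (animal gradient: log2 0.93, SE 0.08, edgeR FDR 5.97e-09). *gpx4.L*, which encodes a lipid hydroperoxide glutathione peroxidase, was at 29.4 ± 7.69% in A and 11.1 ± 3.46% in E (log2 0.97, SE 0.17, edgeR FDR 4.94e-04).

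Transcripts of mitochondrial energy metabolism and of ribosomes were frequent among these calls. Of 125 oxidative phosphorylation transcripts, 52 were higher in A (41.6%, against 8.23% of all transcripts tested) and none was lower (median animal gradient 0.29, against 0.01 over all), and 25 were lower in E (20%, against 2.38%) with none higher. Without oocyte 4, 16 were higher in A and 8 lower in E, and after thinning 14 and 10. *cox4i2.S*, a cytochrome c oxidase subunit, had 267, 201, 299, 302 and 232 CPM in A against 133 to 215 CPM in C to E (log2 0.58, SE 0.06, edgeR FDR 4.42e-07). *ndufs4.L*, a complex I subunit, had an animal gradient of 0.82. Of 102 ribosomal protein transcripts, 48 were higher in A (47.1%) and none was lower (median 0.30), for example *rplp1.L* (0.45) and *rps15.L* (0.51), but 8 were higher without oocyte 4 and 17 after thinning. Of 95 mitochondrial ribosomal protein transcripts, 24 were higher in A (25.3%, median 0.20), and 3 without oocyte 4 and 0 after thinning. The ribosomal protein medians varied by oocyte, with -0.10, 0.20, 0.60, 0.62 and 0.09 in oocytes 1 to 5. Medians over all transcripts tested lay within 0.02 of 0, which is largely set by TMM normalization and serves as no control. For oxidative phosphorylation the medians were 0.04, 0.38, 0.45, 0.44 and 0.10. Oocytes 2 to 4 were thus the ones with the gradient in these lists, and oocytes 1 and 5 showed little of it.

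Transcripts of the animal pathway list, known to be animal in eggs or grown oocytes, had a median animal gradient of 0.005 in small oocytes. Of 25, 6 were higher in A (24%, against 8.23% of all transcripts tested) and 2 lower (8%, against 7.65%), and 3 were lower in E (12%, against 2.38%). Without oocyte 4, 4 were higher in A. *ifrd2.L*, which encodes an interferon-related developmental regulator and is among the transcripts with primers, had 93.8, 81.1, 70.6, 75.3 and 75.2 CPM in A, 71.6, 69.8, 78.3, 81.4 and 85.4 CPM in C and 82.0, 81.8, 80.6, 85.4 and 86.9 CPM in E. The sections overlapped and no difference passed (edgeR FDR 0.872), with shares between 19.5 and 21.0%. *exd2.L*, also among the transcripts with primers, passed (log2 0.43, SE 0.12, edgeR FDR 0.0211) and was below 0 in oocyte 5, with animal gradients of 0.42, 1.06, 0.31, 0.54 and -0.32. It did not pass without oocyte 2 or without oocyte 4. *lima1.S*, an actin-binding protein, had 333, 308, 283, 240.0 and 223 CPM in A, 222, 200.3, 216, 206 and 201 CPM in C and 128, 146, 162, 148 and 181 CPM in E (log2 0.63, SE 0.08, edgeR FDR 8.86e-06). *spata13.S* had 285, 199, 128, 145 and 151 CPM in A and 61.4, 79.8, 91.7, 86.5 and 119 CPM in E (log2 0.75, SE 0.13, edgeR FDR 3.65e-04). Its gradients were 1.62, 0.93, 0.19, 0.46 and 0.28 in oocytes 1 to 5. *prr11.L*, a cell cycle gene, had 1.36, 0.41, -0.12, 0.14 and 0.15 and passed (log2 0.49, SE 0.15, edgeR FDR 0.0351), but without oocyte 1 its value was 0.18 and did not pass. *nusap1.S*, a spindle protein, had 0.74, 0.28, 0.19, 0.18 and 0.16 (log2 0.31, SE 0.09, edgeR FDR 0.018). For these last 3 transcripts the highest gradient was that of oocyte 1, which for the ribosomal lists was among the lowest.

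The signalling and regulatory lists are read against all transcripts tested, of which 4.96% were higher and 2.38% lower in E, and 8.23% higher and 7.65% lower in A. Of 52 Wnt pathway transcripts, 6 were higher in E (11.5%) and 1 was lower (1.92%, median 0.06), and 13 were lower in A (25%, or 4 transcripts without oocyte 4 and 5 after thinning). Higher in E were among others *wnt5a.S*, a noncanonical ligand (1.01), and the receptor *fzd1.L* (0.65). *csnk2b.S*, the regulatory subunit of casein kinase 2, was the lower one (-0.30). Of 46 TGF-β and BMP transcripts, 10 were higher in E (21.7%) and none was lower (median 0.09), with the same count of 10 without oocyte 4. In A 14 were lower (30.4%), or 7 without oocyte 4 and 3 after thinning. Those higher in E included *gdf9.S*, an oocyte growth factor (0.93, against -0.12 for *gdf9.L*, which did not pass), and the receptor *acvr1.L* (0.81). Of 54 maternal transcription factors, 6 were higher in E (11.1%) and 1 was lower, and 9 were lower in A (16.7%, or 4 transcripts without oocyte 4). *otx1.L*, *sox7.L* and both copies of *vegt* led those higher in E, and these also stand in the late pathway list. In the maternal mRNA regulation list (54 tested) 6 were higher in E (11.1%), with *cnot4.L* (1.35), a ubiquitin ligase of the CCR4-NOT complex, and *ddx6.L* (1.05), a helicase of translational repression, while the stress granule protein *g3bp1.S* was lower (-0.40). *parn.L*, the poly(A)-specific ribonuclease, was higher at both ends, with 22.2% in A, 18.0% in C and 23.3% in E. Among 86 transcripts of centrosome, spindle and mitosis, 7 were higher in E (8.14%), with *pcnt.L*, pericentrin (1.40, 36.3% in E), and the checkpoint kinase *ttk.L* (1.06) among them. In A 19 of them were lower (22.1%) and 10 higher (11.6%), or 4 and 3 without oocyte 4. Of 39 transcripts of the RNA localization machinery, 1 was higher in E (2.56%), *celf1.L*, an RNA-binding protein (0.25), and none was lower, while 7 were lower in A (17.9%), or 2 without oocyte 4. Of 54 nuclear pore and transport transcripts, 2 were higher in E (3.7%) and none was lower. Egg envelope transcripts went the other way, with 4 of 10 higher in A (40%, or 2 without oocyte 4), such as *zpd.L* (0.39) and *zp3.2.L* (0.44), and none higher in E. None of the 9 transcripts of previtellogenic RNA storage passed in either gradient.

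**Figure D2:**
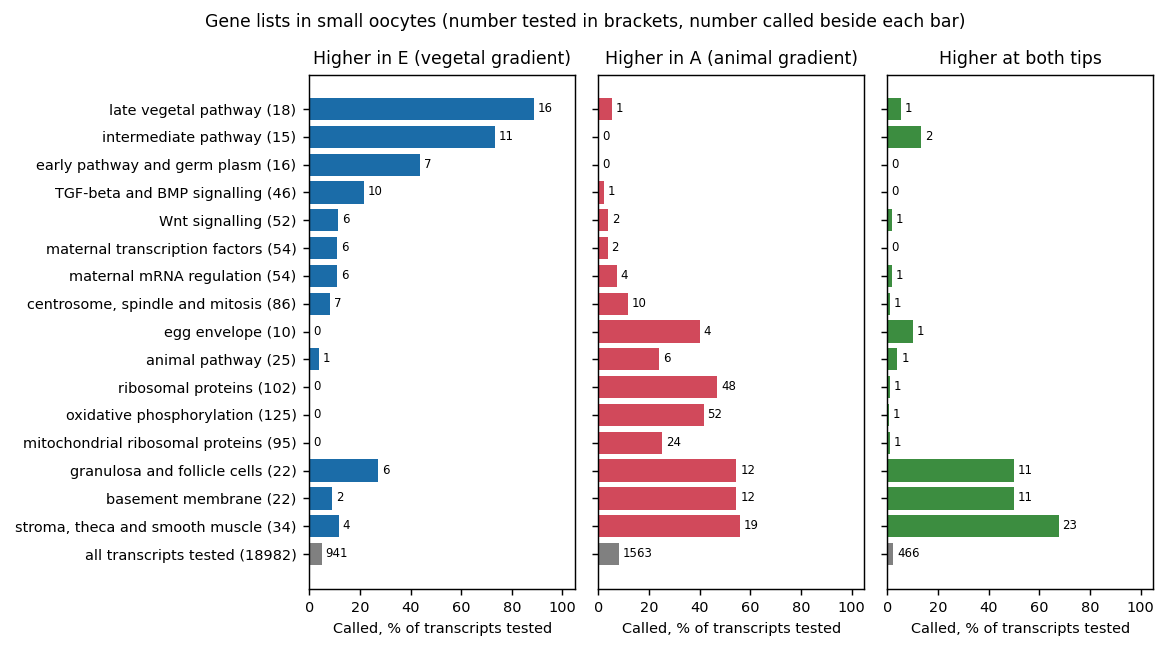
Percentage of the tested transcripts of each list (horizontal axis) that were higher in E, higher in A, or higher at both tips in small oocytes, with the number called beside each bar. Of the late vegetal list 16 of 18 were higher in E, of the oxidative phosphorylation list 52 of 125 were higher in A, and of the stroma list 23 of 34 were higher at both tips.

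A further group of transcripts was higher at both tips than in the inner sections. The paper states that more work is needed to tell whether such polar localization is biologically relevant or comes from normalization. This was not tested here. With A and E each above the mean of B to D and the average of both tested as the polar contrast, 466 transcripts were higher at both tips (2.45%) and 92 lower (0.485%). These counts were 265 and 29 without oocyte 4, and 117 and 26 after thinning. Markers of the cells around the oocyte were frequent among them. Higher at both tips were 11 of 22 granulosa and follicle cell transcripts, 11 of 22 basement membrane transcripts and 23 of 34 transcripts of stroma, theca and smooth muscle. This compares with 2.45% of all transcripts tested, and none of these markers was lower at both tips. Without oocyte 4 the counts were 8, 8 and 16, after thinning 2, 3 and 10, and without the block 9, 2 and 3. Oocyte 2 lacked the pattern for basement membrane and stroma. The median polar contrasts of oocytes 1 to 5 were 0.23, 0.32, 0.87, 0.58 and 0.50 for granulosa and follicle cells, 0.18, -0.06, 0.69, 0.54 and 0.61 for basement membrane and 0.63, -0.00475, 1.21, 0.72 and 0.71 for stroma. In the animal gradient, 12 basement membrane transcripts were higher in A and 2 lower (9.09%). Of the stroma list 19 were higher and 2 lower (5.88%), against 7.65% lower of all transcripts tested. In bulk sections, fewer cells of a type and less RNA per cell cannot be told apart. *lpl.L*, lipoprotein lipase, had 77.3, 26.0, 69.9, 71.6 and 22.5 CPM in A, 45.2, 8.30, 26.1, 27.5 and 9.1 CPM in C and 89.8, 34.7, 89.6, 56.6 and 30.3 CPM in E (log2 1.37, SE 0.11, edgeR FDR 2.03e-09). Levels differed several-fold between oocytes and overlapped over all libraries, but within each oocyte A and E were both above B, C and D. *cyp19a1.L*, the aromatase of follicle cells, had 21.0, 6.00, 14.0, 16.3 and 3.15 CPM in A, 12.5, 1.51, 5.84, 8.38 and 1.54 CPM in C and 28.7, 6.39, 17.5, 15.9 and 7.91 CPM in E (log2 1.28, SE 0.12, edgeR FDR 3.67e-08). *gja4.L*, a gap junction protein, and *inha.L*, the inhibin alpha subunit, had polar contrasts of 1.32 and 1.23. Of the basement membrane list, *col4a2.L*, a type IV collagen, had 38.4 ± 6.35% in A, 16.8 ± 7.18% in C and 24.1 ± 6.42% in E (log2 1.08, SE 0.18, edgeR FDR 2.40e-04). Of the stroma list, *sparc.S*, a matrix glycoprotein, had 35.5% in A and 25.8% in E. Of 23 immediate early and heat stress transcripts, 9 were also higher at both tips (2 after thinning), for example *junb.S* (0.92) and *fosl2.L* (1.28).

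The summed levels of these lists varied less between sections. The granulosa and follicle cell list, of which no transcript was at 0 in all 25 libraries, summed to a median of 862 CPM in A, 792 in B, 793 in C, 794 in D and 841 in E. A large part of this sum was the keratin *krt8.L*, with 281 to 385 CPM, which held 19.6 to 21.1% in each section. The basement membrane list summed to a median of 753 CPM in A, 757 in B, 779 in C, 745 in D and 794 in E, and thus was not higher in A. The stroma list summed to 746 to 1170 CPM in A, 862 to 1022 CPM in C and 878 to 1272 CPM in E. Summed over 45 collagen and laminin transcripts, the medians were 1018 CPM in A, 759 in B, 685 in C, 702 in D and 804 in E, and in oocyte 2 the sum was lower in A (545 CPM) than in B (600.4 CPM) and C (659 CPM). RNA of the listed genes was thus present in all sections, but whether it came from the oocyte or from cells around it was not tested. Its part in the other gradients was not tested either.

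Some transcripts that were higher at both tips had another profile. *tom1l2.S*, a gene of endosomal sorting, had the largest polar contrast of named transcripts (log2 1.51, SE 0.13, edgeR FDR 1.09e-08), but held 60.7 ± 5.97% in E and 11.5 ± 1.78% in A and thus had the profile of a vegetal transcript. Of the transcripts lower at both tips, differences were small, as in *adcy9.S*, an adenylate cyclase (-0.30), and *nav2.L*, a neuron navigator (-0.29), which did not pass without oocyte 4.

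**Figure D3:**
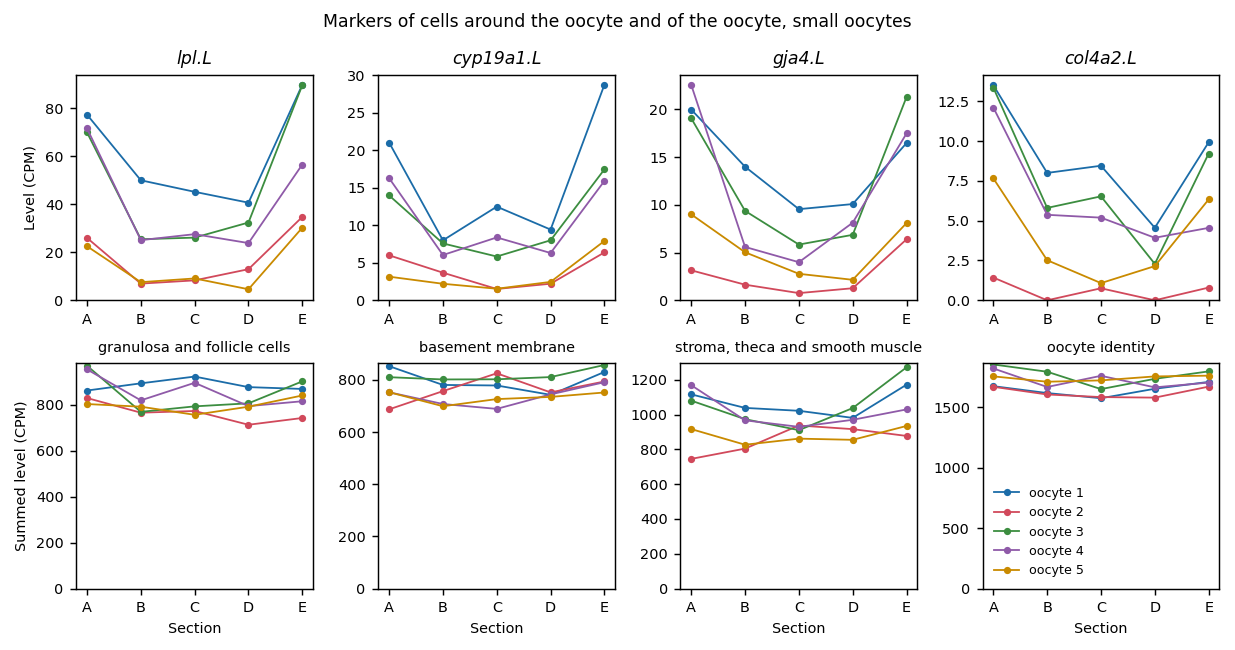
Levels (CPM, vertical axis) in sections A to E (horizontal axis) of the 5 small oocytes, with a line for each oocyte: *lpl.L*, *cyp19a1.L*, *gja4.L* and *col4a2.L* in the upper row, and sums over 3 marker lists and the oocyte identity list in the lower row. *lpl.L* is lowest in the inner sections of each oocyte (11.4 to 12.1% of its RNA in B to D, on average), while the summed lists vary less.

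Peaks within the oocyte were rarely called. B, C and D were each tested against the mean of their neighbouring sections, which does not require them to exceed both. No transcript passed for B in edgeR (756 at an unadjusted p under 0.05, no more than chance alone gives, and 0 by DESeq2). For C 2 passed (0.0105%, 0 by DESeq2, 0 without the block, 0 without oocyte 1, 4 or 5, 1 without oocyte 3 and 5 without oocyte 2). None passed for D (628 unadjusted, also no more than chance alone gives, and 1 by DESeq2). The 2 in C were Xelaev18044754m, which carries no gene name in the files or in RefSeq, and loc101733560.1.S, named by a locus number alone. Both had a higher level in B than in C in oocyte 2, and neither passed between B and C. To describe such profiles, transcripts were ranked by the mean log2(CPM + 0.5) of B and C minus that of A, D and E. This ranking was made after the values were seen and carries no test. Of 18982 transcripts 7 exceeded 1 on this scale, and all 7 exceeded 1.5, whereas 64 were below -1.5. Of the 7, 1 was without counts in B and C of oocyte 1 and is left aside.

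*parp2.L*, a poly(ADP-ribose) polymerase of DNA repair and the only one of the 6 with a gene symbol other than a locus number, had 0.877, 0.857, 7.63, 2.84 and 1.80 CPM in A, 13.3, 20.4, 1.56, 6.71 and 9.13 CPM in B, 28.5, 10.9, 8.93, 10.8 and 15.4 CPM in C, 6.18, 0.316, 0.762, 0.561 and 4.6 CPM in D and 0.841, 2.00, 1.15, 0.284 and 1.41 CPM in E. B and C were above D and E in every oocyte, and oocyte 3 stood apart with more in A than in B. Xelaev18014680m, which has no gene name either, also had B and C above D and E in every oocyte. It had 201, 45.1, 444, 183 and 123 CPM in A, 783, 755, 285, 493 and 479.9 CPM in B, 937, 396, 991, 694 and 673 CPM in C, 307, 12.6, 213, 49.6 and 84.7 CPM in D and 215, 32.7, 221, 78.9 and 136 CPM in E. Its A level in oocyte 3 was again above B. In small oocytes C was the highest section for all 6 transcripts in oocytes 1, 3 and 5 and for 5 of 6 in oocyte 4, whereas B was highest for 5 of 6 in oocyte 2. Among very small oocytes C was highest for 6 of 6 in oocytes 2 and 3 and for 4 of 6 in oocyte 1. In both medium oocytes B was highest for 6 of 6, and in both big oocytes B was highest for 5 of 6 and A for the sixth. The highest section of this small group thus lay nearer the animal end in medium and big oocytes, a difference that was not tested.

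**Figure D4:**
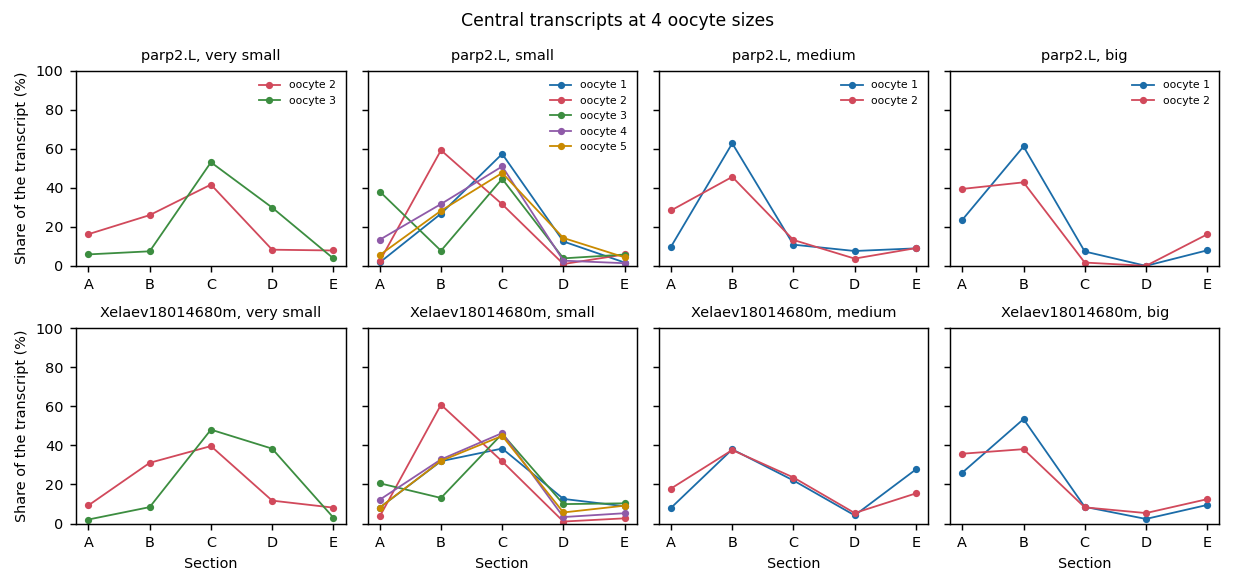
Share (%, vertical axis) of *parp2.L* and Xelaev18014680m in sections A to E (horizontal axis) at 4 oocyte sizes, with a line for each oocyte. Very small oocyte 1, whose section A is not analysed here, is left out. The maximum lies in C in most small oocytes and in B in all medium and big oocytes.

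The profile of small oocytes was set against medium and big oocytes of the same female, in a fit of all 59 libraries with a stage-by-section term. The vegetal gradient differed for 1526 transcripts (8.04%), with a value higher in small oocytes for 634 (3.34%) and lower for 892 (4.7%). For the animal gradient 1147 differed (6.04%), with 413 higher in small oocytes (2.18%) and 734 lower (3.87%). These tests compare 5 small with 2 medium and 2 big oocytes.

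*grip2.L*, *wnt11b.L*, *vegt.L* and *dnd1.L* were compared by oocyte. *grip2.L* had vegetal gradients of 6.72, 8.12, 8.70, 8.26 and 7.99 in small oocytes, against 9.62 and 6.75 in medium and 8.48 and 8.63 in big oocytes, which overlapped (log2 -0.41, SE 0.49, edgeR FDR 0.809). *wnt11b.L* was lower in small oocytes, with 4.36, 5.15, 4.90, 5.12 and 4.71, against 6.56 and 5.91 in medium and 6.39 and 6.26 in big oocytes (log2 -1.42, SE 0.26, edgeR FDR 8.00e-05). *vegt.L* had 2.32, 1.98, 1.62, 1.84 and 1.35 in small oocytes, against 3.33 and 3.24 in medium and 3.93 and 3.09 in big oocytes (log2 -1.60, SE 0.15, edgeR FDR 2.17e-12). *dnd1.L* had 1.40, 1.23, 1.21, 0.79 and 0.84 in small, against 3.50 and 3.21 in medium and 3.44 and 3.31 in big oocytes (log2 -2.30, SE 0.15, edgeR FDR 6.37e-17). The groups of *wnt11b.L*, *vegt.L* and *dnd1.L* did not overlap, but *dnd1.L* was also picked for its stage difference by a rule that required this. On the scale of all 59 libraries, the mean share of *dnd1.L* in E was 23.8% for the 2 very small oocytes with all sections and 33.8% for small, 61.7% for medium and 64.3% for big ones. *chek1.S*, a cell cycle checkpoint kinase, went the same way with 28.2, 39.8, 63.3 and 63.4% (log2 -2.04, SE 0.14, edgeR FDR 2.28e-16).

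Animal transcripts differed as well. *ifrd2.L* had animal gradients of 0.29, 0.04, -0.19, -0.11 and -0.12 in small oocytes, against 1.41 and 1.75 in medium and 1.48 and 1.53 in big oocytes (log2 -1.56, SE 0.10, edgeR FDR 2.62e-17). By increasing size, section A held 20.1, 19.9, 37.5 and 35.6% of it on average. *spata13.S* had 1.60, 0.92, 0.18, 0.46 and 0.27 in small oocytes, against 2.97 and 3.04 in medium and 2.48 and 3.2 in big oocytes (log2 -2.22, SE 0.17, edgeR FDR 1.65e-14), with 20.7, 26.4, 47.2 and 45.7% in A at the 4 sizes. *mprip.L* had 0.44, -0.23, -0.20, -0.37 and 0.25 in small oocytes, against 1.82 and 2.48 in medium and 1.74 and 2.16 in big oocytes (log2 -2.07, SE 0.13, edgeR FDR 2.62e-17). The groups did not overlap in these 3. Transcripts picked for the size of a stage difference had to show no overlap in that gradient, so it is no result for them. Oocyte 1, with the highest value of each among small oocytes, was the nearest to medium and big oocytes.

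Against very small oocytes, the vegetal gradient differed for 255 transcripts (1.34%), with a value higher in small oocytes for 230 (1.21%) and lower for 25 (0.132%). Here the comparison is also that of 2 females. For very small oocyte 1, whose section A is not analysed here, the gradient given is E minus the mean of B and C. *grip2.L* had 6.72, 8.12, 8.70, 8.26 and 7.99 in small oocytes, against 5.92, 5.36 and 4.41 in very small oocytes (log2 2.83, SE 0.44, edgeR FDR 2.07e-05). *nanos1.L* had 7.09, 8.10, 8.32, 7.73 and 7.46 in small oocytes, against 6.51, 5.48 and 4.47 in very small oocytes (log2 2.80, SE 0.64, edgeR FDR 0.0087), and it did not pass without very small oocyte 3 or in DESeq2. *stk38l.S*, a kinase of the NDR family, had 2.85, 3.55, 3.42, 3.43 and 3.67 in small oocytes, against 0.97, 1.41 and 0.81 in very small oocytes (log2 2.36, SE 0.25, edgeR FDR 6.99e-09). *srgap3.S* had 3.95, 5.30, 5.33, 5.43 and 5.47 in small oocytes, against 2.68, 3.37 and 2.95 in very small oocytes (log2 2.34, SE 0.35, edgeR FDR 1.01e-05). *gpx4.L* went the other way, with -0.81, -1.77, -0.61, -1.58 and -0.65 in small oocytes, against 0.17, -0.48 and 0.28 in very small oocytes (log2 -1.06, SE 0.26, edgeR FDR 0.0163), and it did not pass without very small oocyte 1 or 3.

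**Figure D5:**
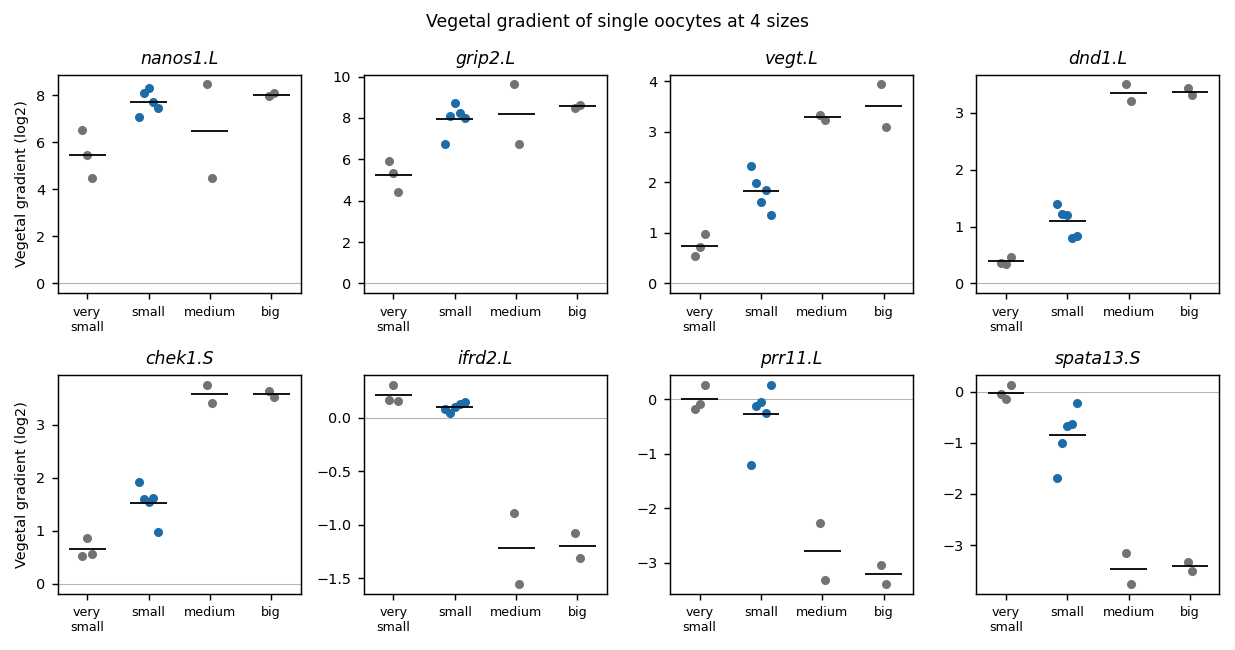
Vegetal gradient (log2, vertical axis) of single oocytes at 4 sizes (horizontal axis), with a point for each oocyte, small oocytes in blue and a bar at the mean. For very small oocyte 1, whose section A is not analysed here, the gradient is E minus the mean of B and C. *vegt.L*, *dnd1.L* and *chek1.S* are lower in all 5 small oocytes than in all 4 medium and big oocytes. *ifrd2.L*, *prr11.L* and *spata13.S* are higher, since their gradients are more negative in medium and big oocytes. *spata13.S* is already negative in small oocytes (fitted log2 -0.85). *dnd1.L*, *chek1.S*, *prr11.L* and *spata13.S* were picked by a rule that required no overlap.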

How the data were processed

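RNA was measured in 25 libraries of 5 small *X. laevis* oocytes, within 59 libraries of 12 oocytes. Reads were trimmed by the authors (Trimmomatic), cleared of ribosomal and mitochondrial RNA (SortMeRNA), aligned with STAR 2.5.2b to the *X. laevis* v9.1 genome and counted with htseq-count into the deposited counts per transcript. Strand use is not given in the sources used here, so that antisense and overlapping genes cannot be told apart. Normalized tables were not used here.

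Counts were tested with edgeR 4.0.16 in R 4.3.3 (TMM, quasi-likelihood, oocyte as block, Benjamini-Hochberg FDR under 0.1, mean scaled total above 20 per oocyte). Sections of the same oocyte deviated together (mean correlation per oocyte 0.145 to 0.395, against -0.073 to -0.150 with other oocytes, and single pairs of sections as low as -0.146 in oocyte 3 and -0.067 in oocyte 4), and the block pairs them by oocyte. The chi-square divided by the number of transcripts was 1.67 to 10.6 between replicates of a section, above sampling noise. Alternatives were DESeq2 1.42.0, DESeq2 size factors in the edgeR test, no block, no filter and a stricter FDR of 0.05. A 1.5-fold criterion, equal depth, all 59 libraries in the fit and each oocyte left out were further ones. The tests were tested on simulated data.

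Members and the 24 gene lists were chosen with earlier results of these data known. Named are the 6 transcripts with primers, the 10 largest values per direction of a contrast (5 for peaks and stage differences) with a total of at least 100 counts and 1 sign in every oocyte, up to 4 called members per list, and pathway and marker members. For stage differences the sign rule was replaced by the condition that gradients of single oocytes did not overlap between the groups. Further transcripts were named after their values were seen, or as homeologs of named ones. Intervals were not computed, and PCR duplicates carry no molecular identifiers.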

Additional observations from a re-analysis of the deposited data

Results flagged for a closer look

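Of 98 results with 5 oocytes that were checked, 6 had an oocyte far from the others, where chance gives about 1 in 20. In *pgat.L* the vegetal gradient was 4.90 in oocyte 1, against 6.23 to 6.54 in the others. In *srgap3.S* it was 3.95 in oocyte 1, against 5.30 to 5.47. In *farp2.L* it was 5.80 in oocyte 4, against 4.44 to 4.77. In *nusap1.S* the vegetal gradient was -1.12 in oocyte 1, against -0.34 to -0.18, and its animal gradient was 0.735 there, against 0.157 to 0.285. Oocyte 1 was the oocyte apart in 4 of the 5 gradients, but both gradients of *nusap1.S* share libraries. The number of results flagged is near that given by chance. The library of section D of oocyte 4 held 7163780 counts, against 2624527 to 3248271 in the other D libraries.

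Gradients that differed between sizes by a test of the difference itself were listed as well. Against medium and big oocytes, the difference of the vegetal gradient (small minus medium and big, log2) was 2.72 for *spata13.S*, 3.05 for *prr11.L* and 1.36 for *ifrd2.L*, all of them negative in medium and big oocytes, and it was -2.30 for *dnd1.L* and -2.04 for *chek1.S*. For the animal gradient the difference was 1.52 for *vegt.L*, -1.56 for *ifrd2.L*, -2.07 for *mprip.L* and -2.22 for *spata13.S*. Small minus very small, the difference of the vegetal gradient was 2.83 for *grip2.L*, 2.80 for *nanos1.L*, 2.36 for *stk38l.S*, 2.34 for *srgap3.S* and -1.06 for *gpx4.L*, where stage and female cannot be told apart.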

How the results depend on the processing

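Of 1098 values for 99 pairs of a named transcript and a contrast (96 of them called), 1069 kept their direction and their side of the threshold under the alternatives, 25 no longer passed, 3 passed newly and 1 changed sign: the animal gradient of *ifrd2.L*, which was not called, was -0.081 without oocyte 1, and -0.081 to 0.048 over the oocytes left out. Counts moved by over 1.5 times as follows, with the same filter and FDR unless named. With a 1.5-fold criterion, section differences were 879, the vegetal gradient higher in E 549 and lower 49, the animal gradient higher in A 293 and lower 294, both tips higher 270 and lower 8, D under B 9, and the stage differences against medium and big oocytes 773 (vegetal) and 539 (animal). Thinned to the lowest depth, they were 541 for sections, 557 and 177 for the vegetal gradient, 252 and 374 for the animal gradient, 117 and 26 for the tips, 122 and 8 for D against B, 2, 1, 93 and 284 for the steps from A to E, and 1 for a peak in C. Without the replicate block, they were 994 for sections, 992 and 942 for the animal gradient, 230 and 36 for the tips, 12 for D under B, 3 for A to B, 1 for B to C and 0 for a peak in C, and the other counts stayed within 1.5 times. At an FDR under 0.05, they were 290 for lower in E, 1025 and 928 for the animal gradient, 45 for lower at both tips, 10 for D under B, 19 for A to B and 1 for a peak in C. With no filter on low counts, they were 193 for lower at both tips, 108 for D under B, 345 for A to B, 74 for B to C and 63, 9 and 5 for peaks in B, C and D. In a fit of all 59 libraries, they were 191 for lower at both tips, 49 for D under B, 137 for A to B, 1 for B to C and 1 for a peak in D. DESeq2 called 3 for B to C, 0 for a peak in C and 1 for a peak in D. With each oocyte left out in turn, sections gave 766 to 1518, lower in E 210 to 566, the animal gradient 314 to 1734 and 422 to 1569, the tips 265 to 451 and 29 to 141, D over B 135 to 220 and D under B 5 to 25, A to B 4 to 82, B to C 0 to 1, C to D 105 to 165, peaks in B 0 to 1 and in C 0 to 5, and the difference from very small oocytes 144 to 330. The lowest of each of these, apart from B to C, the peaks and the difference from very small oocytes, was the value without oocyte 4. The causes were not tested. A low transcript such as *fst.L* lost its call in the polar contrast after thinning.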

Other observations

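Some lists stand in none of the comparisons above, and their shares are read against all transcripts tested (4.96% higher and 2.38% lower in E, 8.23% higher and 7.65% lower in A). Of 31 transcripts of histone chaperones and oocyte chromatin, 1 was higher in E (3.23%) and 3 were lower (9.68%, none without oocyte 4), and 2 were higher (6.45%) and 1 lower (3.23%) in A. *uhrf1.S*, a factor of DNA methylation maintenance, had a vegetal gradient of 0.40, and *npm2.L*, nucleoplasmin, had an animal gradient of 0.33. Of 38 sterol synthesis transcripts, 2 were higher in E (5.26%) and 1 was lower (2.63%), which is near the background, with *ldlr.L*, the receptor of low density lipoprotein, at 0.55. Of 10 tested transcripts of blood and endothelium, none passed in the vegetal gradient and 1 was higher in A (10%). Of the 17 oocyte identity transcripts, 2 were higher (11.8%) and 1 lower (5.88%) in E, and 2 were higher and 2 lower in A (11.8% each).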
